A study of Rattus norvegicus with 12 samples.

Results

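Axon guidance genes encode the secreted and membrane-bound cues that steer growing axons, and the receptors that read them. They were followed here in the striatum of rats with a one-sided dopamine lesion. The members are the probes whose gene symbol starts with Sema, Plxn, Epha, Ephb, Efna, Efnb, Slit, Robo, Ntn or Unc5 and that were well above background on all 3 arrays of at least 1 group. The array held 71 probes with such a symbol among 30367 distinct probes, and 65 of them, from 52 genes, met the rule. The 6 that did not were second probes of Epha2, Ntn4, Sema3g and Ntng1 and the probes of Ntng2 and Unc5cl. Of the 52 genes, 51 were tested, with 63 probes: 17 semaphorins, 6 plexins, 7 ephrins, 7 Eph receptors, 3 Slits, 2 Robos, 5 netrins, 3 Unc5 receptors and Unc50. Unc50 shares its letters with the netrin receptors but is not one of them. The probe of Sema4g and a second probe of Sema6d had a spot marked as an outlier on 1 array and so were not tested. The whole fit covered 19412 features, where a feature is a gene or a probe without a gene symbol.

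Total RNA of striatum from male Wistar rats was labelled with Cy3 and hybridised to 12 single-colour Agilent arrays, 3 per group. All 4 groups came from rats given 6-hydroxydopamine, a toxin that kills dopamine neurons, in the left medial forebrain bundle, and selected for turning, at 7 or more turns per minute, under methamphetamine at 3 mg/kg. After saline, both the non-lesioned and the lesioned side were sampled, and the other groups were the lesioned side of rats given L-DOPA (100 mg/kg) alone or together with zonisamide (50 mg/kg). L-DOPA, the precursor of dopamine, followed the decarboxylase inhibitor benserazide by 30 min. Zonisamide, developed against epilepsy and later used in Parkinson's disease, was injected intraperitoneally 30 min after L-DOPA, and dosing was once per day for 7 days. The rats' age, any pooling of RNA, and whether arrays of opposite sides share rats are not stated, so the p-values measure only the spread between these arrays. The non-lesioned side belongs to a lesioned rat and is not tissue of an untouched animal. As bulk tissue was measured, fewer cells of a type and less RNA per cell cannot be told apart.

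In background terms, secreted semaphorins act through neuropilins and plexins, membrane-bound semaphorins act mostly through plexins directly, ephrins bind Eph receptors on neighbouring cells, Slits bind Robos, and netrins attract through Dcc and repel through Unc5 receptors. Most were found as cues for growing axons, but many stay expressed in the adult brain, where they act on synapses, glia and blood vessels. In the striatum, Eph receptors and ephrins pattern the striosome and matrix compartments, and Slits and netrins guide the dopamine axons that 6-hydroxydopamine later destroys.

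Values below are log2 signals relative to the 75th percentile of the same array, so a negative level means a signal under that percentile, and a difference of 1 is 1 step on the log2 scale. Each probe has its own brightness, so levels of different probes are not compared. The 75th percentiles lay between 793 and 1737 intensity units and 67.7% to 74.0% of probes were well above background. The spread between repeated spots, as the scanner software reports it, ranged from 3.74% to 27.8%. Ppp1r1b, a marker of striatal spiny neurons, lay between 4.68 and 5.78 on all 12 arrays, and all 6 tested genes of its marker list were well above background on every array. The choroid plexus marker Ttr was 2.32, 3.05 and 6.73 on the non-lesioned arrays, -0.74, 4.35 and 3.30 after saline, 4.31, 7.27 and 6.89 after L-DOPA, and 4.28, 2.72 and 6.67 with zonisamide added, so the level of this marker of a neighbouring tissue differed widely between arrays of 1 group, and its part in the results below was not tested.

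No guidance gene passed an adjusted p of 0.05 in any of the 4 comparisons (limma, Benjamini-Hochberg over 19412 features, 2-sided). A member's smallest adjusted p was 0.50 on the lesioned against the non-lesioned side after saline, 0.351 for L-DOPA against saline, 0.0764 when zonisamide was added to L-DOPA, and 0.635 for both drugs against saline. The same threshold called 0% of all features in the lesion comparison, 0.433% in the L-DOPA comparison, 0.479% in the zonisamide comparison and 0% with both drugs. At an unadjusted p under 0.05, 4 members were higher on the lesioned side and 1 lower, which is 9.80% of members beside 8.48% of all features (6.33% higher and 2.15% lower). After L-DOPA 1 member was higher and 4 lower, 9.80% beside 11.3% (5.98% and 5.31%). With zonisamide added 4 were higher and 5 lower, 17.6% beside 12.4% (4.64% and 7.77%). With both drugs 1 was higher and 4 lower, 9.80% beside 7.34% (1.91% and 5.42%). The members' share was near that of all features in each comparison. When every probe was tested as a feature of its own, 1 member probe, the second of Sema3c, passed the threshold, lower with zonisamide.

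Over the 51 genes the median log2 difference was 0.08 with the lesion, -0.01 with L-DOPA, -0.09 on adding zonisamide and -0.14 with both drugs, beside 0.05, -0.03, -0.03 and -0.05 over all features. With quantile normalization the lesion and both-drugs medians turned to -0.07 and 0.02, and with normexp background correction and quantile normalization together those for the lesion, zonisamide and both drugs were -0.06, 0.02 and 0.02, so none of these 3 has a settled direction. The 3 arrays of 1 group lay wholly above or below the 3 of the other for 7 of 51 members in the lesion comparison, 9 after L-DOPA, 11 on adding zonisamide and 10 with both drugs, which is 13.7%, 17.6%, 21.6% and 19.6%, beside 17%, 22.4%, 17.3% and 18.1% of all features. The median spread (SD) within groups was 0.35 for the members and 0.34 for all features.

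**Figure D1:**
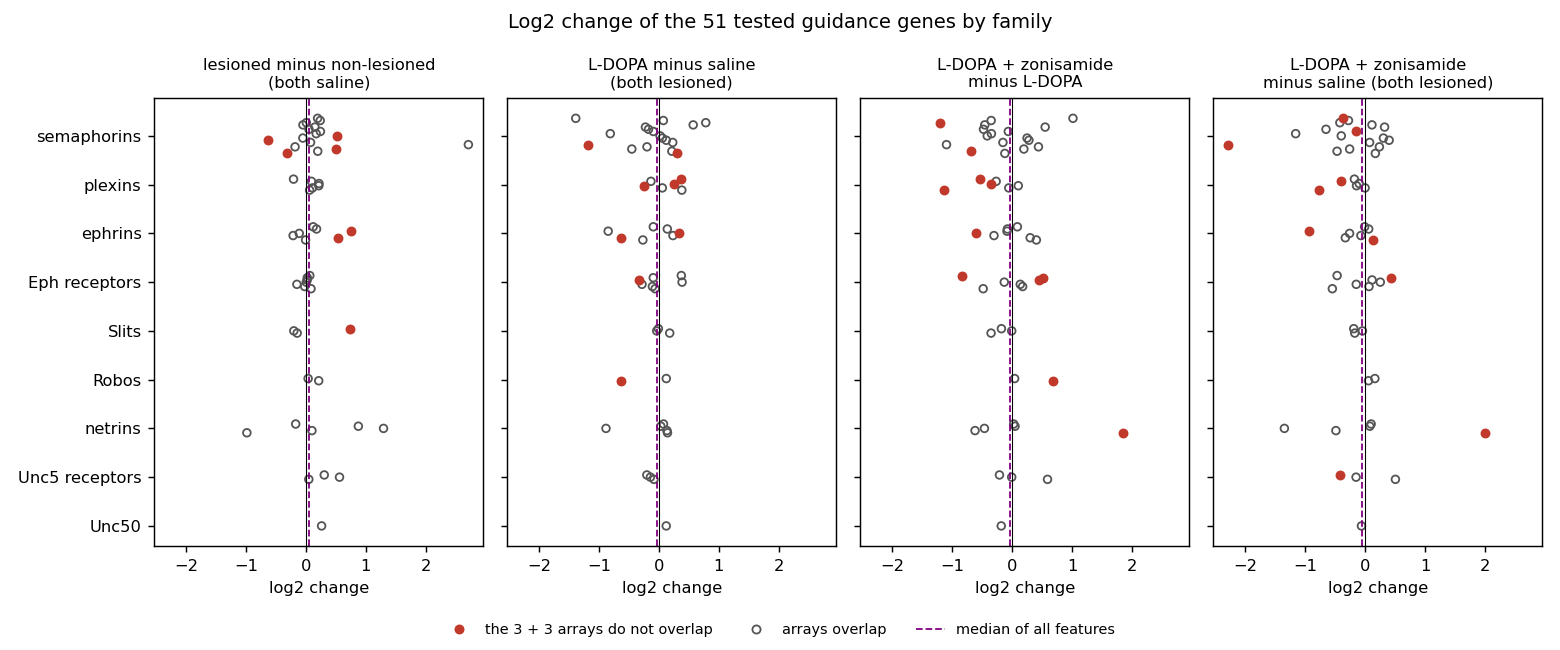
Log2 difference (horizontal axis) of each of the 51 tested genes, by family (rows), in the 4 comparisons (panels). Filled points are genes whose arrays did not overlap between the groups, open points the others, and the dashed line is the median of all 19412 features. Most points lie close to 0. Sema6a in the lesion panel (2.71) and the both-drugs panel (-2.29) and Ntng1 in both zonisamide panels (1.86 and 2.00) stand far out. Without the array farthest from the rest, the lesion value of Sema6a was 1.37 and Ntng1 was 0.86 against saline. The both-drugs value of Sema6a lay between -2.68 and -1.91 with 1 array left out.

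Promoters are given for 4 members described below whose L-DOPA and zonisamide arrays did not overlap, 3 of them lower and 1 higher with zonisamide, so that their sequences can be set side by side; they were chosen after their values were seen. Each is the 250 bases before the RefSeq transcript start (assembly GRCr8), printed 5′ to 3′ on the strand of the gene, with capitals marking motif matches. They belong to Sema3c (chr4:18699628-18699877, minus strand), Plxnb3 (chrX:156646624-156646873, plus strand), Epha2 (chr5:158888379-158888628, plus strand) and Robo2 (chr11:26526413-26526662, minus strand).
Sema3c: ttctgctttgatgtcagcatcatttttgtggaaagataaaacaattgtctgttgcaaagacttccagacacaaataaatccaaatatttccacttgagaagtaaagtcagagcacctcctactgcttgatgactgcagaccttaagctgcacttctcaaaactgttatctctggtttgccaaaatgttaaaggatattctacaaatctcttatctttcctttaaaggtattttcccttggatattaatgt
Plxnb3: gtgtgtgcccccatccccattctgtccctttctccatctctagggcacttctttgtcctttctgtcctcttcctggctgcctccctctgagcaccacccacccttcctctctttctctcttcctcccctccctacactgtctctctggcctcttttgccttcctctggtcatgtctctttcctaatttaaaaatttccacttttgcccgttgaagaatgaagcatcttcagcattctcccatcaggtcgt
Epha2: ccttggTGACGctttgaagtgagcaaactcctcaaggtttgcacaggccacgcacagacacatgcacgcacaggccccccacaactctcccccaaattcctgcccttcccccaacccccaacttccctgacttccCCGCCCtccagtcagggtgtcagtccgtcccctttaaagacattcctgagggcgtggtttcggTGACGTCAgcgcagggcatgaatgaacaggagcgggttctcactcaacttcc
Robo2: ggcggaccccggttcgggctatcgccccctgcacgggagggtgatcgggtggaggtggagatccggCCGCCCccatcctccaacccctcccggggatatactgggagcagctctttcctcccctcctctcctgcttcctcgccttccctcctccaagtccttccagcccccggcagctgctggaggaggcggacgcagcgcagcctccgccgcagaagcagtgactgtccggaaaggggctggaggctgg
The motifs searched, on both strands, were the cAMP response element TGACGTCA and its shorter form TGACG (which overlaps it), the AP-1 site TGANTCA, the GC box GGGCGG, the TATA box TATAAA and the E-box CACGTG. The Sema3c and Plxnb3 windows held no match. The Epha2 window held the full response element starting 52 bases before the transcript start, short forms at 244, 52 and 49 bases and a GC box at 115 bases. The Robo2 window held 1 GC box, at 184 bases. Over 33469 windows of the same length, 1.59% held the full element, 18.2% its short form, 6.34% an AP-1 site, 30.5% a GC box, 12.9% a TATA box and 5.59% an E-box. Of the 41 windows found for 40 of the member genes, 1 held the full element, 8 the short form, 22 a GC box, 3 an E-box and 0 an AP-1 site or TATA box. The 4 windows differed in base composition, with 35.2% G and C for Sema3c, 50.8% for Plxnb3, 58.4% for Epha2 and 69.2% for Robo2, beside medians of 60.4% over the member windows and 51.2% over all. A match describes letters only and says nothing of binding in these rats.

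Among the semaphorin ligands, Sema3c, a secreted cue that binds neuropilin and plexin complexes, differed most between the drug groups. It was measured by 2 probes. On the brighter one it was -3.48, -3.28 and -3.59 on the non-lesioned side, -2.92, -3.57 and -3.85 on the lesioned side after saline, -2.28, -2.98 and -2.73 after L-DOPA, and -3.43, -4.32 and -3.85 with zonisamide added. All 3 L-DOPA arrays lay above all 3 arrays with zonisamide, while the L-DOPA and saline groups overlapped by 1 array. The difference with zonisamide was -1.20 ± 0.30 (SE, n = 3 per group), a level 2.30-fold lower, with adjusted p = 0.117 (limma), and after L-DOPA it was 0.78 ± 0.30 (adjusted p = 0.351, limma).

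The dimmer Sema3c probe, which does not stand for the gene in the main test and was singled out after its values were seen, was -4.32, -4.80 and -4.89 on the non-lesioned side, -4.08, -4.84 and -4.43 after saline, -3.29, -3.54 and -3.09 after L-DOPA, and -5.35, -5.24 and -4.55 with zonisamide. The L-DOPA arrays were the highest of all 12, and the saline and zonisamide groups overlapped. With every probe as a feature, this probe fell by 1.74 ± 0.27 when zonisamide was added (adjusted p = 0.0329, limma), and it was 1.14 ± 0.27 higher after L-DOPA (unadjusted p = 0.00174, adjusted p = 0.123, limma). The mean of both probes was lower by a log2 difference of -1.47 (adjusted p = 0.0352, limma). The 2 probes correlated at r = 0.80 over the 12 arrays, as a description. The call on the dimmer probe was lost with the replicate number as a block (adjusted p = 0.0532, limma), with slide as a fixed block (0.109), with quantile normalization (0.0560), with normexp added to it (0.0612, where the difference was -0.78), and without 1 array in 5 of the 12 cases (0.0523 to 0.137), namely replicate 2 of the non-lesioned group, L-DOPA replicates 2 and 3, and zonisamide replicates 1 and 2. The dimmer probe was not tried with only the groups compared, with no filter on dim probes, or with an intensity trend and robust prior. Nor was it tried without arrays of replicate-spot spread over 20%, so whether its call holds there is not known. Within the 3 slides that held both drug groups, the zonisamide difference was -1.15, -1.12 and -1.34 on the brighter probe and -2.05, -1.46 and -1.70 on the dimmer.

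Of the other secreted semaphorins, Sema3a, the classic repellent of growing axons, was -3.55, -3.95 and -3.99 after saline and -3.90, -5.04 and -6.73 after L-DOPA. The groups overlapped at 1 array, and the difference of -1.39 ± 0.55 (adjusted p = 0.371, limma) became -0.64 without L-DOPA replicate 3. Sema3e, a ligand of the receptor Plxnd1 in thalamic input to the striatum, differed by 0.15, -0.23, 0.55 and 0.32 (SE 0.28) for the lesion, L-DOPA, zonisamide and both drugs, with overlapping groups each time. Sema3b, Sema3d and Sema3g differed by between -0.65 and 0.57 in the 4 comparisons.

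Of the 8 members with the smallest lesion p, 3 were membrane semaphorins whose groups did not overlap, while the groups of Sema6a, also among the 8, did. Over the 17 semaphorins of the 51 members 23.5% did not overlap for the lesion, beside 13.7% of members and 17% of all features. Sema4f was -0.59, -0.08 and -0.67 on the non-lesioned side and -1.20, -0.96 and -1.10 on the lesioned side, a difference of -0.64 ± 0.21 (unadjusted p = 0.0128, adjusted p = 0.507, limma). Every lesioned saline array lay below every non-lesioned one. Sema4c, a ligand of Plxnb2, was -4.67, -4.13 and -4.19 against -3.62, -3.85 and -3.95, so each lesioned array was higher (0.52 ± 0.22). Sema7a, anchored to the membrane by a lipid and able to act through integrins, was 0.10, -0.02 and -0.11 against -0.23, -0.19 and -0.53, each lower (-0.31 ± 0.15), and -0.10, -0.08 and 0.10 after L-DOPA, each higher than saline (0.29 ± 0.15, adjusted p = 0.499, limma); without lesioned saline replicate 3 these were -0.21 and 0.19. With zonisamide, Sema6b, a ligand of Plxna4, was 2.38, 2.27 and 2.50 against 1.79, 1.74 and 2.31 under L-DOPA alone (0.44 ± 0.18, adjusted p = 0.352, limma), with 1 overlapping array. Sema4b differed by -1.16 ± 0.54 between both drugs and saline, and by -0.62 without lesioned saline replicate 3.

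Plexins are the semaphorin receptors, and Plxnb3, a receptor for Sema5a that has been described in oligodendrocytes, had the smallest p of all members. It was -0.88, -0.68 and -1.64 on the non-lesioned side, -0.94, -1.20 and -0.88 after saline, -0.56, -0.91 and -0.40 after L-DOPA, and -1.86, -1.76 and -1.69 with zonisamide. The 3 arrays with zonisamide were the lowest of the 12, next to the third non-lesioned array. Against L-DOPA alone the difference was -1.15 ± 0.24, a 2.21-fold lower level (unadjusted p = 0.000807, adjusted p = 0.0764, limma), and against saline it was -0.77 ± 0.24 (unadjusted p = 0.0103, adjusted p = 0.635, limma). The adjusted p for zonisamide was 0.0488 with slide as a random block and 0.0344 without non-lesioned replicate 3, and ranged from 0.0344 to 0.255 over the alternatives. Within the 3 slides with both drug groups the difference was -1.30, -1.29 and -0.85.

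The 9 tested markers of the oligodendrocyte lineage were all well above background on every array. Their mean lay between 2.21 and 2.59 on the non-lesioned side, 1.74 and 2.79 after saline, 2.35 and 2.78 after L-DOPA, and 2.23 and 2.28 with zonisamide. With zonisamide 8 of the 9 were lower than with L-DOPA alone, with a median of -0.12, and 0 passed the adjusted threshold (limma; 1 at an unadjusted p under 0.05). The part of these cells in the Plxnb3 values was not tested.

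The other 5 plexins had smaller differences. Plxna2, a receptor of Sema6a, was 0.12, 0.08 and 0.55 after L-DOPA and -0.43, -0.26 and -0.18 with zonisamide, without overlap (-0.54 ± 0.18, adjusted p = 0.254, limma). After L-DOPA it was also above all saline arrays (0.36 ± 0.18, and 0.21 without L-DOPA replicate 3). With zonisamide 5 of the 6 plexins were lower than with L-DOPA alone and 2 had an unadjusted p under 0.05, with a median of -0.31; over all features 12.4% had such a p and 7.77% were lower with one. After L-DOPA 4 of the 6 were higher than after saline, with a median of 0.16; both comparisons use the L-DOPA arrays.

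**Figure D2:**
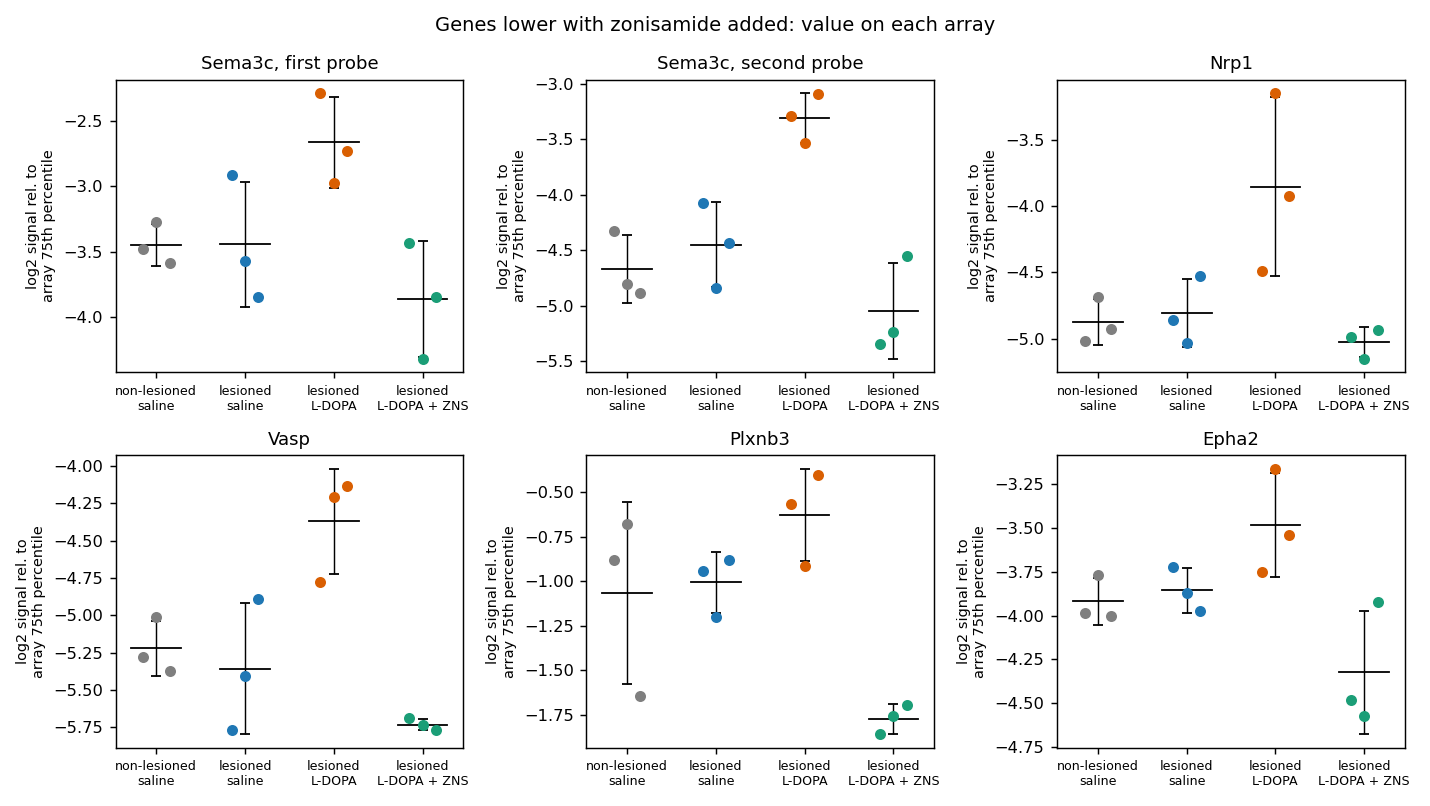
Log2 signal relative to the array's 75th percentile (vertical axis) on each of 12 arrays (points) in the 4 groups (horizontal axis) for both Sema3c probes, Nrp1, Vasp, Plxnb3 and Epha2. Lines are means and bars SDs of 3 arrays; vertical ranges differ between panels. In each panel the L-DOPA arrays lie above all arrays with zonisamide (ZNS), and in the Plxnb3 panel the latter lie between -1.86 and -1.69.

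Among the Eph receptors, Epha2, which is expressed by blood vessels and epithelia, was -3.99, -3.77 and -4.00 on the non-lesioned side, -3.72, -3.87 and -3.98 after saline, -3.75, -3.16 and -3.54 after L-DOPA, and -4.48, -4.57 and -3.92 with zonisamide. All L-DOPA arrays lay above all zonisamide arrays. The difference was -0.84 ± 0.21, 1.79-fold lower (unadjusted p = 0.00241, adjusted p = 0.122, limma), and -0.47 ± 0.21 against saline (adjusted p = 0.67, limma). It was -0.73, -0.38 and -1.41 within the 3 slides that held both drug groups. The dim second probe of Epha2 did not meet the rule.

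Epha4, which binds ephrins of both classes and was read by 2 probes, lay on the other side. The brighter probe was 2.41, 2.06 and 2.10 on the non-lesioned side, 2.11, 2.30 and 2.21 after saline, 2.06, 1.59 and 1.99 after L-DOPA, and 2.32, 2.37 and 2.29 with zonisamide. The dimmer was 1.20, 1.06 and 1.35, then 0.93, 1.04 and 0.91, then 0.51, 0.59 and 0.70, then 1.13, 1.46 and 0.76 in the same order of groups. On both probes every L-DOPA array was below every saline array and below every zonisamide array. The differences were -0.33 ± 0.16 after L-DOPA (-0.19 without L-DOPA replicate 2) and 0.45 ± 0.16 with zonisamide on the brighter probe (adjusted p = 0.486 and 0.285, limma) and -0.36 and 0.52 on the dimmer. On the brighter probe it was 0.12 ± 0.16 between both drugs and saline, and 0.02 ± 0.16 for the lesion. On the dimmer probe every lesioned saline array lay below every non-lesioned one, so the 2 probes had opposite signs for the lesion. The mean of both probes differed by -0.11 there. Epha3, named after its values were seen, lay higher on all arrays with zonisamide than on all with L-DOPA alone (0.52 ± 0.25, adjusted p = 0.432, limma). Epha7 differed by between -0.29 and 0.14 over the 4 comparisons, and Epha5, Ephb1 and Ephb6 by between -0.55 and 0.38.

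The smallest adjusted p among the ephrin ligands was 0.351 (limma). Efnb2, the membrane ephrin of arteries and of some neurons, was -3.15, -3.40 and -3.27 on the non-lesioned side, -3.08, -2.84 and -2.29 after saline, and -3.27, -3.21 and -3.64 after L-DOPA. Saline on the lesioned side was thus the highest of these 3 groups, without overlap (0.53 ± 0.25 for the lesion and -0.63 ± 0.25 for L-DOPA, adjusted p = 0.592 and 0.374, limma). Without lesioned saline replicate 3 these were 0.31 and -0.41. Efna4, a lipid-anchored ephrin, was -5.04, -6.13 and -5.30, then -5.02, -4.92 and -4.27, then -5.83, -4.86 and -6.06, then -5.35, -5.91 and -5.75 in the 4 groups. Lesioned saline was above the non-lesioned side and above both drugs together (0.76 ± 0.38, or 0.44 without non-lesioned replicate 2, and -0.94 ± 0.38), and overlapped with L-DOPA alone (-0.85 ± 0.38). As the lesion and the drug comparisons share the lesioned saline arrays, a high level there enters each of them.

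Efnb3, a membrane ephrin that repels axons at the midline, was 2.25, 2.27 and 2.20 after saline, 2.54, 1.71 and 1.65 after L-DOPA and 2.29, 2.40 and 2.43 with zonisamide. The saline and zonisamide groups were tight, and L-DOPA was split, with 1 array above all saline arrays and the others below (-0.27 ± 0.22, and -0.56 without that array, or -0.11 without L-DOPA replicate 3). Efna5, the ephrin known for striatal and thalamic patterning, was dim. It was well above background on 3 of 3 non-lesioned arrays, 2 of 3 L-DOPA arrays and none of the saline or zonisamide arrays. In the fit it was 1.51-fold higher after L-DOPA than with zonisamide (-0.60 ± 0.25 for zonisamide, adjusted p = 0.351, limma, and -0.38 without zonisamide replicate 2). This fold is an estimate from dim signals and not a bound set by the detection limit. It entered the test through the non-lesioned group, whose arrays overlapped with those of saline on the lesioned side.

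Of the Slits, secreted ligands of the Robo receptors, Slit1 had the smallest lesion p of all members. It was -1.03, -1.06 and -1.42 on the non-lesioned side, -0.39, -0.38 and -0.56 after saline, -0.06, -0.75 and -0.54 after L-DOPA, and -0.31, -0.92 and -0.67 with zonisamide. All 9 lesioned arrays lay above the 3 non-lesioned ones. The lesion difference was 0.73 ± 0.22, 1.66-fold higher (unadjusted p = 0.00756, adjusted p = 0.50, limma), 0.60 to 0.80 with 1 array left out, and 0.64 within the slide that held both groups. Against saline the difference was -0.01 ± 0.22 for L-DOPA and -0.19 ± 0.22 for both drugs. Slit3 differed by between -0.35 and 0.18 and Slit2, on its brighter probe, by between -0.20 and -0.01 over the 4 comparisons. That probe spread from -1.10 to 0.94 on the non-lesioned side, while the 9 lesioned arrays lay between -0.53 and -0.24. A second Slit2 probe had the opposite sign for the lesion and for zonisamide, though the probes correlated at r = 0.82.

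Robo2 was 1.02, 0.24 and 0.29 on the non-lesioned side, 0.72, 0.91 and 0.55 after saline, 0.52, -0.02 and -0.21 after L-DOPA, and 0.72, 0.83 and 0.80 with zonisamide. Each L-DOPA array was below each saline and each zonisamide array. The differences were -0.63 ± 0.24 after L-DOPA and 0.69 ± 0.24 with zonisamide (adjusted p = 0.362 and 0.276, limma). A second probe of Robo2 gave -0.24 and 0.01, and the probes correlated at r = 0.18 over the 12 arrays, so the pattern rests on 1 probe. Robo1 differed by between 0.03 and 0.16 over the 4 comparisons.

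**Figure D3:**
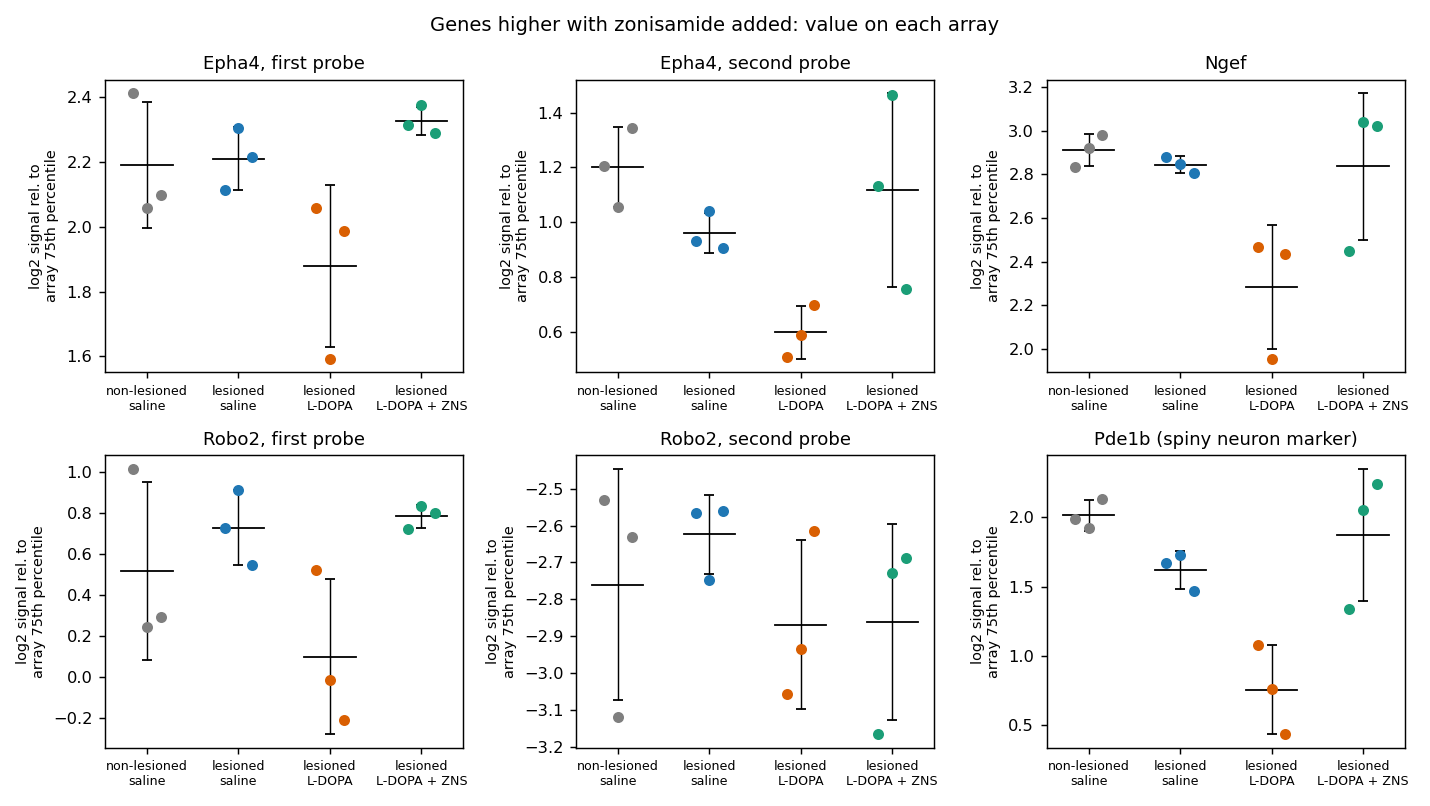
Log2 signal relative to the array's 75th percentile (vertical axis) on each of 12 arrays (points) in the 4 groups (horizontal axis) for both probes of Epha4, Ngef, both probes of Robo2 and the spiny neuron marker Pde1b. Lines are means and bars SDs of 3 arrays; vertical ranges differ between panels. On both Epha4 probes and the first Robo2 probe the L-DOPA arrays lie below all zonisamide arrays, and the second Robo2 probe does not follow.

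Several netrins were near background. Ntn4, a netrin of basement membranes, was well above background on none of the non-lesioned arrays, all 3 saline arrays and 1 array of each drug group. It was -6.69, -5.34 and -7.54 on the non-lesioned side and -4.97, -4.99 and -5.72 after saline, with 1 overlapping array. It entered the test through the saline group, so this difference is a description: 1.29 ± 0.67 (adjusted p = 0.627, limma), or 0.79 without non-lesioned replicate 3. Likewise as a description, Ntn4 differed by -1.35 between both drugs and saline, or by -0.68 without zonisamide replicate 2. Ntn3 was well above background on 1 non-lesioned array, 2 arrays each after saline and after L-DOPA, and 3 with zonisamide, through which it entered the test. Its lesion difference, from dim signals and overlapping groups, was 0.87 ± 0.39 (unadjusted p = 0.0492, adjusted p = 0.588, limma). With normexp and quantile normalization together that difference was 0.07. Ntn1, the founding attractant, was -3.55, -3.70 and -4.20, then -3.64, -4.28 and -4.05, then -3.88, -4.29 and -3.58, then -4.60, -3.98 and -3.08, with all groups overlapping and differences between -0.17 and 0.10. Of the netrin receptors, Unc5a was -1.12, -1.29 and -0.93 after saline and -1.49, -1.42 and -1.68 with both drugs, without overlap (-0.42 ± 0.15, unadjusted p = 0.0215, adjusted p = 0.656, limma). Unc5b differed by between -0.15 and 0.56 and Unc5c by between -0.09 and 0.59, with overlapping groups throughout. A second Unc5c probe, named after its values were seen, gave 1.21 for the lesion against 0.05 on the first, and the probes correlated at r = 0.11.

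Some large differences changed much when 1 array was left out. Ntng1, a membrane-anchored netrin of thalamic neurons, was -1.26, -4.71 and -4.64 with zonisamide, and between -5.89 and -4.04 on the other 9 arrays. Its dim second probe was -3.69 on the first zonisamide array and -6.97 and -6.65 on the others. Slc17a6, the glutamate transporter that marks thalamic neurons, was 2.52 on that array against -5.84 and -5.75, and the mean of the 4 tested genes of its marker list reached -0.92 there against a highest value of -1.80 in the other groups. Ntng1 differed by 2.00 ± 0.80 between both drugs and saline and by 0.86 without that array. All 3 zonisamide arrays lay above all saline and L-DOPA arrays, by 0.55 and 0.45 within the other slides that held both drug groups. Whether neighbouring tissue set this value was not tested.

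Sema6a, a membrane semaphorin, showed the widest spread. Its brighter probe was -1.68, -4.51 and -7.12 on the non-lesioned side, -1.80, -1.98 and -1.39 after saline, -2.04, -4.67 and -2.03 after L-DOPA, and -3.23, -4.77 and -4.03 with zonisamide. The non-lesioned arrays spread most, with 1 inside the saline range and the others below it. The lesion difference of 2.71 ± 1.18 was 1.37 without non-lesioned replicate 3, 4.09 without replicate 1, and 0.01 on the second probe. On the brighter probe all zonisamide arrays lay below all saline arrays, a difference of -2.29 between both drugs and saline. It lay between -2.68 and -1.91 with 1 array left out, and its adjusted p was at least 0.44 under every alternative (limma). The probes correlated at r = 0.28. Over the 12 genes with 2 tested probes, the probes had the same sign in 8 for the lesion and in 10 for each of the other comparisons.

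**Figure D4:**
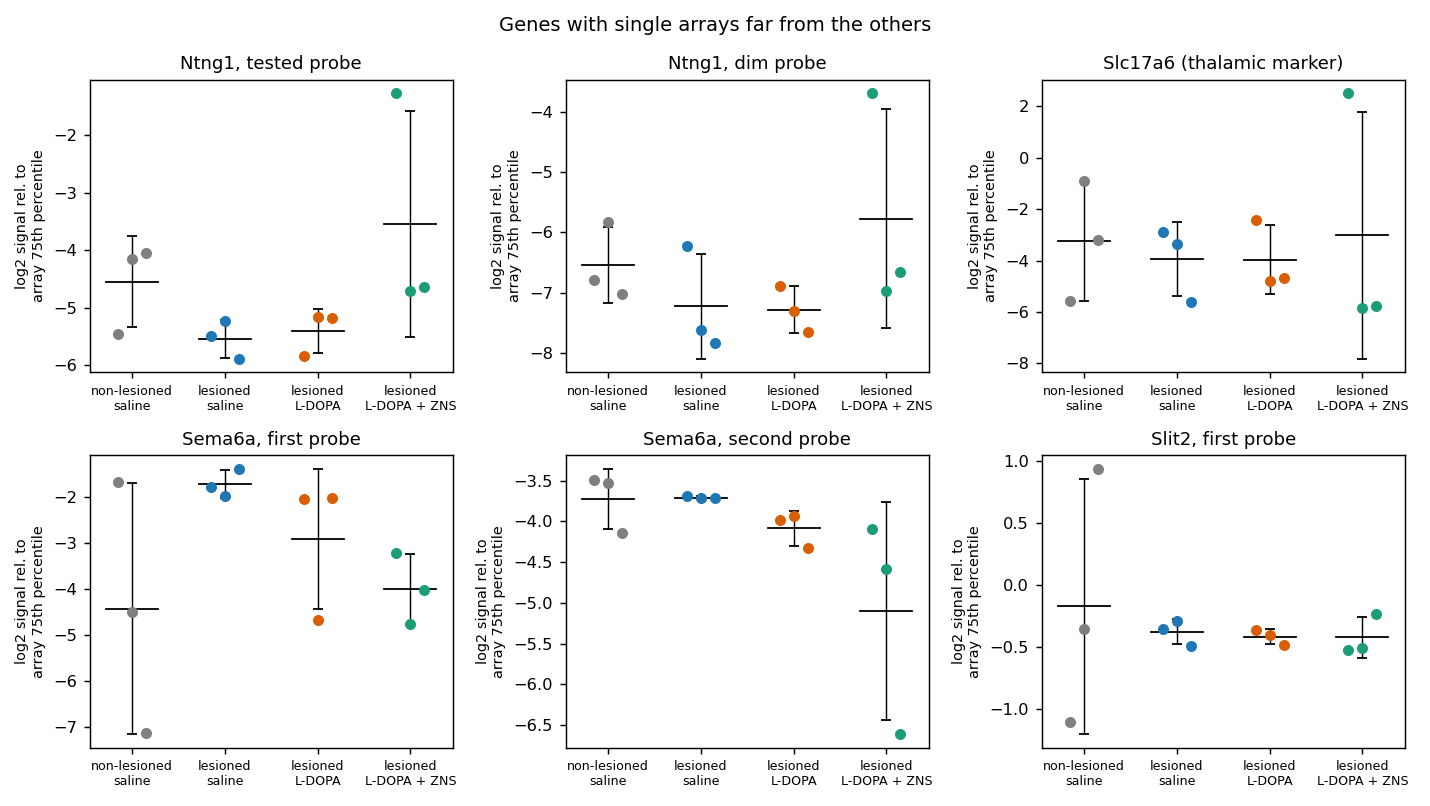
Log2 signal relative to the array's 75th percentile (vertical axis) on each of 12 arrays (points) in the 4 groups (horizontal axis) for Ntng1 (2 probes), the thalamic marker Slc17a6, Sema6a (2 probes) and Slit2. Lines are means and bars SDs of 3 arrays; vertical ranges differ between panels. One array with zonisamide is high for both Ntng1 probes (-1.26 and -3.69) and for Slc17a6 (2.52).

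Co-receptors and intracellular partners that the symbol rule leaves out were taken from a list of 60 genes, of which 46 were tested. Their medians were 0.01, 0.03, 0.06 and 0.05 in the 4 comparisons, in the order given above. At an unadjusted p under 0.05, 2 were higher and 0 lower for the lesion, 4 higher and 3 lower for L-DOPA, 4 and 4 for zonisamide, and 1 and 0 for both drugs. These are 4.35%, 15.2%, 17.4% and 2.17% of the list, beside 8.48%, 11.3%, 12.4% and 7.34% of all features. The adjusted threshold (limma) was passed by 1, in the zonisamide comparison.

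That gene was Vasp, an actin regulator that acts downstream of Robo. It was -5.28, -5.01 and -5.37 on the non-lesioned side, -5.77, -5.41 and -4.89 after saline, -4.78, -4.21 and -4.13 after L-DOPA, and -5.69, -5.74 and -5.77 with zonisamide. The L-DOPA arrays were the highest of the 12. Vasp fell by 1.36 ± 0.24 with zonisamide (adjusted p = 0.0454, limma), and was 0.99 ± 0.24 higher after L-DOPA (adjusted p = 0.133, limma). The zonisamide call was lost with the replicate number as a block (0.0703), with slide as a fixed block (0.103), with no filter on dim probes (0.0743), with an intensity trend and robust prior (0.0701), with only the groups compared (0.189), without arrays of replicate-spot spread over 20% (0.328), and when any 1 of 10 of the 12 arrays was left out (0.0535 to 0.187); it was kept without lesioned saline replicate 3 and without L-DOPA replicate 1. With normexp and quantile normalization together the difference was -0.45 (adjusted p = 0.216, limma). Its adjusted p ranged from 0.0228 to 0.328.

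Nrp1, the neuropilin that binds secreted semaphorins and also the vascular growth factor VEGF, was -5.02, -4.68 and -4.92, then -4.86, -5.03 and -4.53, then -4.49, -3.14 and -3.92, then -4.98, -5.15 and -4.94 in the 4 groups. After L-DOPA it was above all other arrays (0.96 ± 0.29, adjusted p = 0.241, limma, and 0.60 without L-DOPA replicate 2), and with zonisamide it lay 1.17 ± 0.29 lower than with L-DOPA alone (adjusted p = 0.122, limma). Without L-DOPA replicate 1 the latter reached adjusted p = 0.0318. Trio, an exchange factor downstream of Dcc, was -5.98, -3.86 and -4.83 on the non-lesioned side and -3.19, -3.10 and -2.58 on the lesioned side (1.93 ± 0.62, adjusted p = 0.503, limma). Fes, a kinase in the Sema3a pathway, differed by 0.81 ± 0.35 in the same comparison. Cdk5 and Fyn, kinases that act in guidance signalling, differed by 0.43 ± 0.18 and 0.47 ± 0.24 between both drugs and saline; Fyn was 0.25 without zonisamide replicate 3 and 0.29 without lesioned saline replicate 3.

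Ngef, an exchange factor that acts downstream of Epha4, was chosen after its values were seen. It was 2.83, 2.92 and 2.98, then 2.88, 2.85 and 2.80, then 2.46, 1.96 and 2.43, then 2.45, 3.04 and 3.02. The L-DOPA arrays lay below all saline arrays of both sides and overlapped with zonisamide at 1 array (-0.56 ± 0.19 and 0.55 ± 0.19).

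Levels of cell type markers varied alongside these genes. The 7 tested endothelial markers of 8 listed were well above background on all arrays. Their mean lay between -2.68 and -2.27 on the non-lesioned side, -2.28 and -2.06 after saline, -1.95 and -1.68 after L-DOPA, and -2.69 and -2.31 with zonisamide. On this mean all L-DOPA arrays lay above all others, as for Nrp1, Vasp and the dimmer Sema3c probe. They also lay above all zonisamide arrays, as for Epha2 and the brighter Sema3c probe. The single markers were mixed: after L-DOPA 5 were higher than after saline and 2 lower (median 0.25). Of the 7, 1 did not overlap with saline, which is 14.3% beside 22.4% of all features. With zonisamide 6 of the 7 were lower and 1 higher, with a median of -0.76. Here 4 did not overlap with L-DOPA alone, which is 57.1% beside 17.3% of all features. Kdr differed by -1.45 ± 0.29, Pecam1 by -0.93 ± 0.19 and Cldn5 by -0.92 ± 0.19 (adjusted p = 0.0664, 0.0679 and 0.0664, limma). Other lists differed too. With zonisamide all 7 tested markers of pericytes and smooth muscle were lower (median -0.50), as were all 4 of blood (-1.02) and all 9 of choroid plexus (-1.57), and after L-DOPA the 9 choroid plexus markers were higher (2.91). With zonisamide 5 microglia markers were lower and 2 higher (-0.33), and 5 of 6 astrocyte markers were lower (-0.31). So were 6 of 7 markers of meninges and perivascular fibroblasts (-0.40), while 6 of 8 of striatal interneurons were higher (0.10). The microglia means were 0.19 to 0.58 after L-DOPA and -0.05 to 0.06 with zonisamide, without overlap, as for the endothelial list. Blood means did not overlap either (-2.18 to -1.59 and -3.01 to -2.28). Beside the lesion results, all 7 tested markers of direct-pathway spiny neurons were lower on the lesioned side without overlap (median -0.50), with list means of 0.70 to 0.77 on the non-lesioned side and 0.03 to 0.35 on the lesioned side after saline. Other lists differed for the lesion too. All 7 microglia markers were higher (0.25), as were 6 of 7 endothelial (0.31) and 6 of 7 pericyte and smooth muscle markers (0.40). All 9 choroid plexus markers were lower (-1.73), 0 of them without overlap, as were 6 of 7 of meninges and perivascular fibroblasts (-0.36). For markers that both kinds of spiny neurons share, the mean of 6 tested markers lay between 3.57 and 4.30 on the non-lesioned side, 4.00 and 4.39 on the lesioned side after saline, 3.77 and 3.87 after L-DOPA, and 3.54 and 4.20 with zonisamide. Pde1b differed by -0.86 ± 0.24 after L-DOPA and 1.12 ± 0.24 with zonisamide, in the directions of Epha4, Robo2 and Ngef, while Foxp1 and Adcy5 of the same list differed by 0.01 and 0.14 after L-DOPA and by -0.41 and -0.39 with zonisamide. Over that list 2 were higher and 4 lower after L-DOPA (median -0.35), and 3 higher and 3 lower with zonisamide (median 0.03). The part of these cells in the guidance gene values was not tested.

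The pattern of each of the 3 members with the smallest F-test p was set against the other members by Pearson's r over the 12 arrays, as a description of arrays that share groups, tissue makeup and scaling. For Plxnb3 the closest were Plxna2 (r = 0.83), Plxna3 (0.73) and Sema3c (0.71). For Sema3c they were Efna5 (0.77), Plxnb3 (0.71) and Plxna4 (0.69), and for Epha2 they were Efna5 (0.75), Sema6d (0.73) and Plxnb3 (0.71). As Efna5 was well above background on none of the lesioned saline or zonisamide arrays, its r values include signals near background. Within groups, after the group means were taken out, Plxnb3 correlated with Plxna3 at 0.90 and with Plxna2 at 0.73, but with Sema3c at 0.22 and with Epha2 at 0.02.

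**Figure D5:**
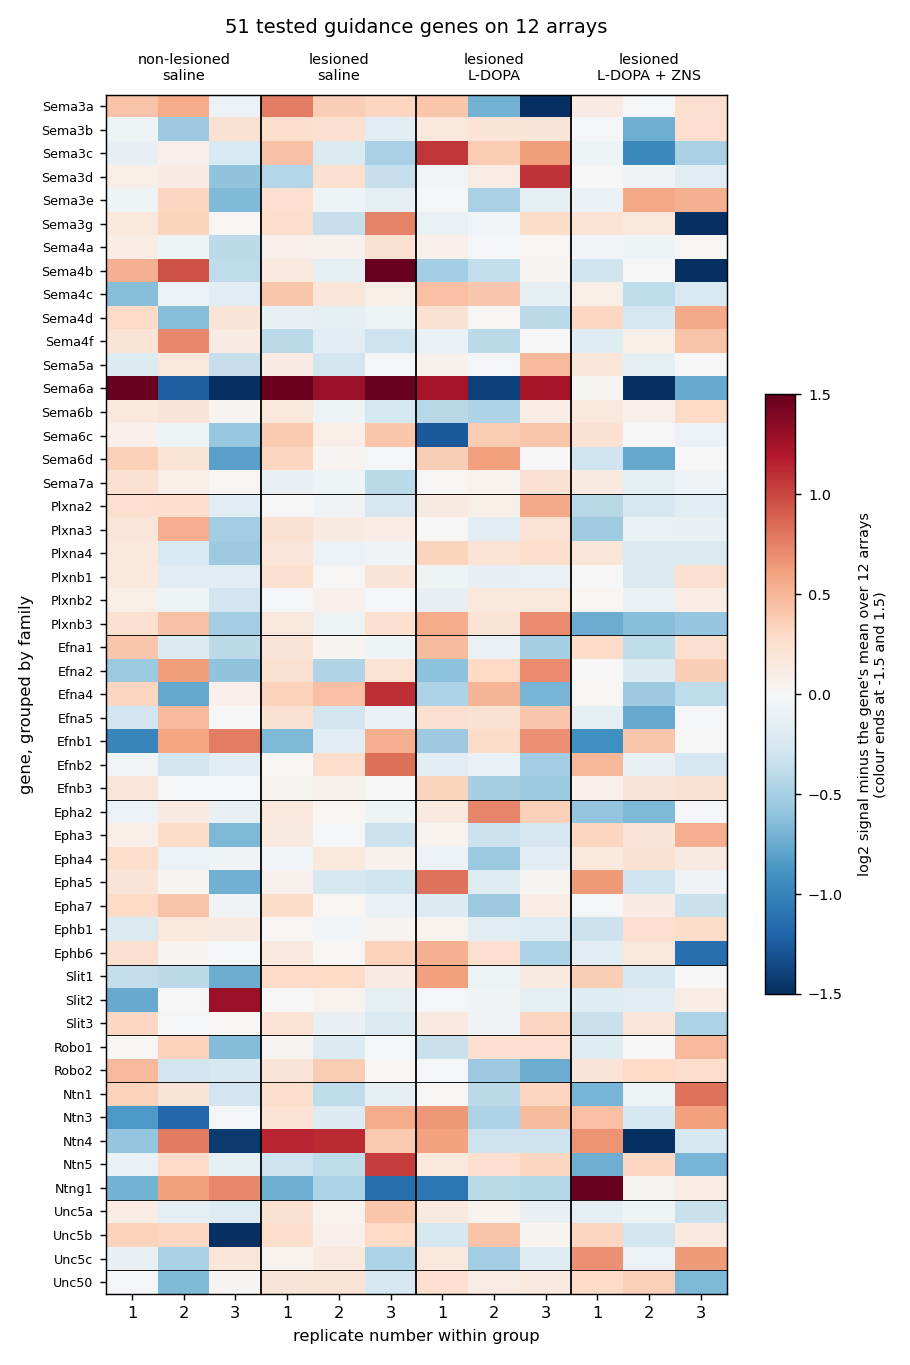
Heat map of the 51 tested genes (rows, by family) on 12 arrays (columns, by group and replicate number). Colour is the log2 signal minus the gene's own mean over the arrays and ends at -1.5 and 1.5. Plxnb3 is low on all 3 zonisamide arrays, Sema3c is high on all 3 L-DOPA arrays, and Sema6a and Ntng1 hold the single arrays farthest from the rest.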

How the data were processed

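Striatal RNA was measured on 12 single-colour arrays, 3 in each of 4 groups taken from the labels. The deposited intensity values are Agilent Feature Extraction processed signals, background-subtracted by that software (version 10.7.3.1, per the file headers); the combined series table held the same values. From these, log2 values were computed as the log2 of the intensity minus each array's 75th percentile over non-control spots. Control spots and outlier spots were dropped, and repeated spots of a probe averaged. A probe entered the test with a value on all 12 arrays and, in 1 or more groups, a share of 0.5 or more of its spots well above background on each of the 3 arrays. Each gene was represented by its tested probe of highest mean. limma 3.58.1 (R 4.3.3) was fitted to all 12 arrays with 4 contrasts, with Benjamini-Hochberg adjustment over 19412 features. The fit was tested on simulated data with features shifted in the L-DOPA group. It recovered 26 of 100 features shifted by a log2 change of 1 and 75 of 100 shifted by 2, so smaller differences can be missed. The 3 drug comparisons share arrays.

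Named were, per comparison, the 8 members of smallest p, members detected in all of 1 group and none of another, 15 guidance genes known in the striatum (Plxnd1 and Unc5d not analysed here), the partner genes of smallest p, and 3 members for likeness of pattern. Members and lists were chosen with earlier results of these data known. An exact permutation test of 3 against 3 arrays cannot go below p = 0.1. Their number limits the precision. In the zonisamide comparison, same-numbered arrays share a slide, so the replicate numbers pair those arrays by slide. Their deviations correlated at 0.37, 0.19 and 0.25. Whether the number also marks an animal or a batch is not stated, and the main fit did not use it. In the other comparisons the pairing by slide is only partial. Same-numbered arrays share a slide for replicates 1 and 2 with L-DOPA and with both drugs, and for replicate 1 with the lesion. Deviations of these pairs correlated at 0.20 and -0.11 with L-DOPA, 0.10 and -0.18 with both drugs, and 0.08 with the lesion. Slide and replicate blocks, normalization, filters, probe choice and leaving out each array were tried as alternatives. One gene of the spiny neuron marker list is not reported here and was left out of the list's mean.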

Additional observations from a re-analysis of the deposited data

How the results depend on the processing

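Over the genes named in the text, 1916 of 2016 values under an alternative kept their direction and their side of the threshold, and 70 changed sign. No member passed the threshold under the main setting, and the small size of most differences and 3 arrays per group limit what could be seen. With every probe as a feature, with the mean of a gene's probes, and with slide as a random block, 1 member passed it for zonisamide in each case. The tests of the second Sema3c probe under other settings were chosen after seeing the data.

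Of all features, 84 passed the threshold for L-DOPA and 93 for zonisamide. These counts were 48 and 45 with no filter on dim probes, 0 and 0 with only the groups compared, 0 and 0 with slide as a fixed block, and 1 and 1 without arrays of replicate-spot spread over 20%. For zonisamide the count was 50 with normexp and quantile normalization together, 59 with quantile normalization and 188 with slide as a random block. The replicate number as a block pairs all same-numbered arrays by slide only in the zonisamide comparison, and some of them in the others. With it the counts were 34 for L-DOPA and 13 for zonisamide, and 0 members passed. The calls of Vasp (adjusted p = 0.0703, limma) and the second Sema3c probe (0.0532) were lost. This block changed no other call on a member. The lesion comparison could not be made without arrays of spread over 20%, since all non-lesioned arrays exceeded it. The cause of these changes was not tested.

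With 1 array left out, the counts over all features ranged from 2 to 210 for L-DOPA, 0 to 253 for zonisamide, 0 to 3 for both drugs and 0 to 13 for the lesion, and the count of members for zonisamide from 0 to 1. The median over the members ranged from -0.085 to 0.0093 for L-DOPA, -0.16 to 0.034 for zonisamide and -0.16 to -0.033 for both drugs. Under normexp and quantile normalization together the medians were -0.062 for the lesion, 0.018 for zonisamide and 0.021 for both drugs, and under quantile normalization alone -0.071 for the lesion and 0.018 for both drugs.

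Of 53 values of at least 0.25 in size, 31 moved by over 1.5 times with normexp and quantile normalization together and 16 with slide as a fixed block. With the former the zonisamide values were -0.66 for Plxnb3, -0.77 for Sema3c, -0.40 for Epha2 and -0.58 for Nrp1. With the mean of a gene's probes Robo2 was 0.35. The values that changed sign were those of named genes. With the mean of a gene's probes, Robo2 was -0.090 for both drugs, Epha4 -0.11 for the lesion and Slit2 0.037 for zonisamide. With normexp and quantile normalization together, the L-DOPA values were -0.059 for Ntn1, 0.0047 for Sema3e and 0.12 for Slit1. Those for both drugs were 0.021 for Efna5, 0.077 for Epha7, -0.033 for Robo2 and 0.018 for Slit1. Those for the lesion were -0.012 for Epha4, -0.16 for Robo1, -0.0058 for Robo2, -0.019 for Sema3a and -0.17 for Sema3e, and Slit2 was 0.041 for zonisamide. With quantile normalization alone, Slit1 was 0.0067 for L-DOPA, Epha7 0.018 and Slit2 0.018 for both drugs, Epha4 -0.020, Robo1 -0.13, Sema3a -0.053 and Sema3e -0.086 for the lesion, and Slit2 0.035 for zonisamide. With slide as a fixed block, Ntn1 was -0.16 for L-DOPA and -0.14 for both drugs, and for the lesion Efna5 was 0.18, Epha4 -0.021, Ntn1 0.042, Robo1 -0.10, Sema3a -0.15 and Slit2 0.51. Without arrays of spread over 20%, Ntn1 was -0.096 and Slit1 0.034 for L-DOPA, Ntn1 -0.30 and Robo1 -0.032 for both drugs, and Ntn1 -0.21 and Robo1 -0.054 for zonisamide.

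With 1 array left out, values that changed sign ranged as follows. For L-DOPA, Slit1 lay between -0.21 and 0.14, Ntn1 between -0.096 and 0.26 and Slit2 between -0.095 and 0.0049. For zonisamide, Slit1 lay between -0.34 and 0.017, Epha7 between -0.030 and 0.30, Ntn1 between -0.38 and 0.38, Robo1 between -0.15 and 0.18 and Slit2 between -0.10 and 0.046. For both drugs, Ntn1 lay between -0.30 and 0.46, Robo1 between -0.032 and 0.30, Slit2 between -0.14 and 0.0067 and Robo2 between -0.034 and 0.15. For the lesion, Efna5 lay between -0.29 and 0.095, Efnb3 between -0.043 and 0.061, Epha4 between -0.045 and 0.13, Slit2 between -0.67 and 0.35, Robo1 between -0.24 and 0.25 and Sema3e between -0.12 and 0.38. The cause was not tested.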

Other observations

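The only probe of Sema4g, a membrane semaphorin left out of the fit because a spot was marked as an outlier on 1 array, was -3.71, -1.26 and -1.26 on the non-lesioned side, -1.26, -1.33 and -1.33 after saline, -1.39, -1.11 and -0.76 after L-DOPA, and -1.81 and -0.61 on the remaining 2 arrays with zonisamide. Apart from the first non-lesioned array, the groups overlapped.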
